A study of Mus musculus with 14 samples.

Results

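Fos, Fosb, Jun, Junb, Egr1, Atf3, Ier2, Ier3, Dusp1 and Zfp36 are immediate early genes, which are also known to be switched on while cells are being isolated. They were chosen by name: the rows of the gene count table whose Ensembl identifiers carry these symbols in the GENCODE vM21 mouse annotation. All 10 were found among the 54524 genes of the table, and all 10 were among the 26626 genes that passed the filter on low counts. Liver sinusoidal endothelial cells (LSECs), the fenestrated cells that line the liver capillaries, were sequenced in bulk from 14 samples of male Balb/c mice 10 to 12 weeks old, although the methods of the study give a somewhat older range. There were 4 samples from healthy mice, and after a single intraperitoneal injection of 0.5 µL carbon tetrachloride (CCl4) per g body weight in mineral oil there were 2 samples on day 1, 4 on day 3 and 4 on day 7. CCl4 is a hepatotoxin that kills hepatocytes around the central vein. Healthy mice were not injected, so the injection and the oil cannot be told apart from CCl4, and the day 1 group is small because samples with low RNA integrity were dropped. In every group the livers were perfused, and live cells positive for CD32 and negative for the macrophage antigen F4/80, for CD45 and for UV autofluorescence were sorted and lysed without culture.

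Immediate early genes are transcribed within minutes of a stimulus, without new protein synthesis, and most of their mRNAs are short-lived. Fos and Jun proteins pair to form the transcription factor AP-1, Egr1 is a zinc finger activator, and Dusp1 and Zfp36 act as brakes, on MAP kinases and on inflammatory mRNAs respectively. Perfusion, enzymatic digestion and sorting are known to induce these genes in freshly isolated cells, so their level in sorted LSECs can carry the preparation as well as the state of the tissue. The question addressed here was whether the levels followed the group or single samples.

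The samples held 46401496 to 103912264 counts each, and 22986 to 34768 genes were detected. The 4 samples of day 3 spanned this whole range, with 34678 and 34768 genes in replicates 1 and 2, 28203 in replicate 3 and 22986 in replicate 4. The share of mitochondrial counts was 3.04 to 3.65% in healthy LSECs and 5.28 to 9.87% on day 7. All 12 LSEC markers examined (among them Stab1, Stab2, Clec4g and Lyve1) had counts in every sample. The labels do not say whether each sample is 1 mouse, so the p-values below measure only the spread between these samples.

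Short upstream stretches of 3 members are shown, because these were the members lower on day 3 and because Fos and Dusp1 moved together most closely from sample to sample. They were taken from RefSeq promoter windows on GRCm38.p6, from 250 bases before to 50 bases after the start of the gene, which were used for 8 members. Windows of Egr1 and Ier2 were not used here. The stretch of Fos (chr12:85473640-85473889, plus strand) and that of Dusp1 (chr17:26508520-26508722, minus strand) hold no annotated exon. Only 30 bases are shown of Zfp36 (chr7:28379267-28379296, minus strand), since its window lies in an exon of a longer Zfp36 transcript. Capitals mark the TATA box TATAAA in Fos, the cAMP response element TGACGTCA in Dusp1 and the CArG box, the sequence that serum response factor recognises, in Zfp36.
Fos: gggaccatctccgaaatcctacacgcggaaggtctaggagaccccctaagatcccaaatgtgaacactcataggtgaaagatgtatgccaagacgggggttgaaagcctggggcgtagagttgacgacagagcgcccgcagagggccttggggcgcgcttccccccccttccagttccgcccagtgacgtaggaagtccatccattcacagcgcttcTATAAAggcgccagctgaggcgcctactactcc
Dusp1: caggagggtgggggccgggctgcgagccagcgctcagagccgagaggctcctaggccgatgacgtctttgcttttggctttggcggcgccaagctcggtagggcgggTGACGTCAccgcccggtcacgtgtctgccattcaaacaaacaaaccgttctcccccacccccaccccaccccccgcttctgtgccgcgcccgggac
Zfp36: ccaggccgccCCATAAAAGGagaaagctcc

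Of the 8 windows, searched on both strands, the CArG box was present in 1 (Zfp36), the cAMP response element in 1 (Dusp1), the Egr1 sequence GCGNGGGCG in 2 (Zfp36 and Fosb), TATAAA in 2 (Fos and Junb) and the AP-1 sequence TGANTCA in 0. Among all 32851 RefSeq windows of the same length, 1.63% held the CArG box, 1.79% TGACGTCA, 5.55% GCGNGGGCG, 13.6% TATAAA and 7.81% TGANTCA. The cAMP response element of Dusp1 began 143 bases before the start and the CArG box of Zfp36 began 58 bases before it, and no match overlapped another. These matches describe the letters of the window and are not evidence of binding.

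The 10 genes together took between 1.30 and 2.72% of the counts of each sample. In healthy LSECs they took 2.41 to 2.72% of all counts. They took 1.44 and 1.63% on day 1, 1.30 to 2.08% on day 3 and 1.33 to 2.08% on day 7, so that every sample after CCl4 lay below every healthy sample. Levels were then taken as counts per 1000000 (CPM), scaled by the trimmed mean of M values (TMM). The summed level was 25020 to 26901 CPM in healthy LSECs, 15251 and 17016 CPM on day 1, 13866 to 18047 CPM on day 3 and 13611 to 18631 CPM on day 7. Since these are bulk samples, fewer cells that carry an mRNA and less mRNA per cell cannot be told apart. The 3 injected groups overlapped one another.

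Levels of different genes were compared per kilobase of exon. The length counts every base in any annotated exon of the gene (3470 bases for Zfp36, 6243 for Fosb). It can exceed the transcript that is expressed, so the order below is approximate. On this scale Fos led in healthy LSECs with a level of 3661 ± 350 CPM per kb (SD, n = 4), the 10th highest of 26618 ranked genes. It was followed by Junb (1348 CPM per kb), Dusp1 (1229), Zfp36 (1020), Ier3 (945), Jun (581), Ier2 (526), Atf3 (403), Egr1 (397) and Fosb (49.8), all as mean levels in CPM per kb. Fos stood above Junb in all 4 samples without overlap, Dusp1 above Zfp36 and Egr1 above Fosb likewise, while the other neighbours in this order overlapped. On day 3 Fos had a level of 1957 ± 270 CPM per kb and ranked 29th, and Dusp1 moved from rank 37 to rank 86.

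**Figure D1:**
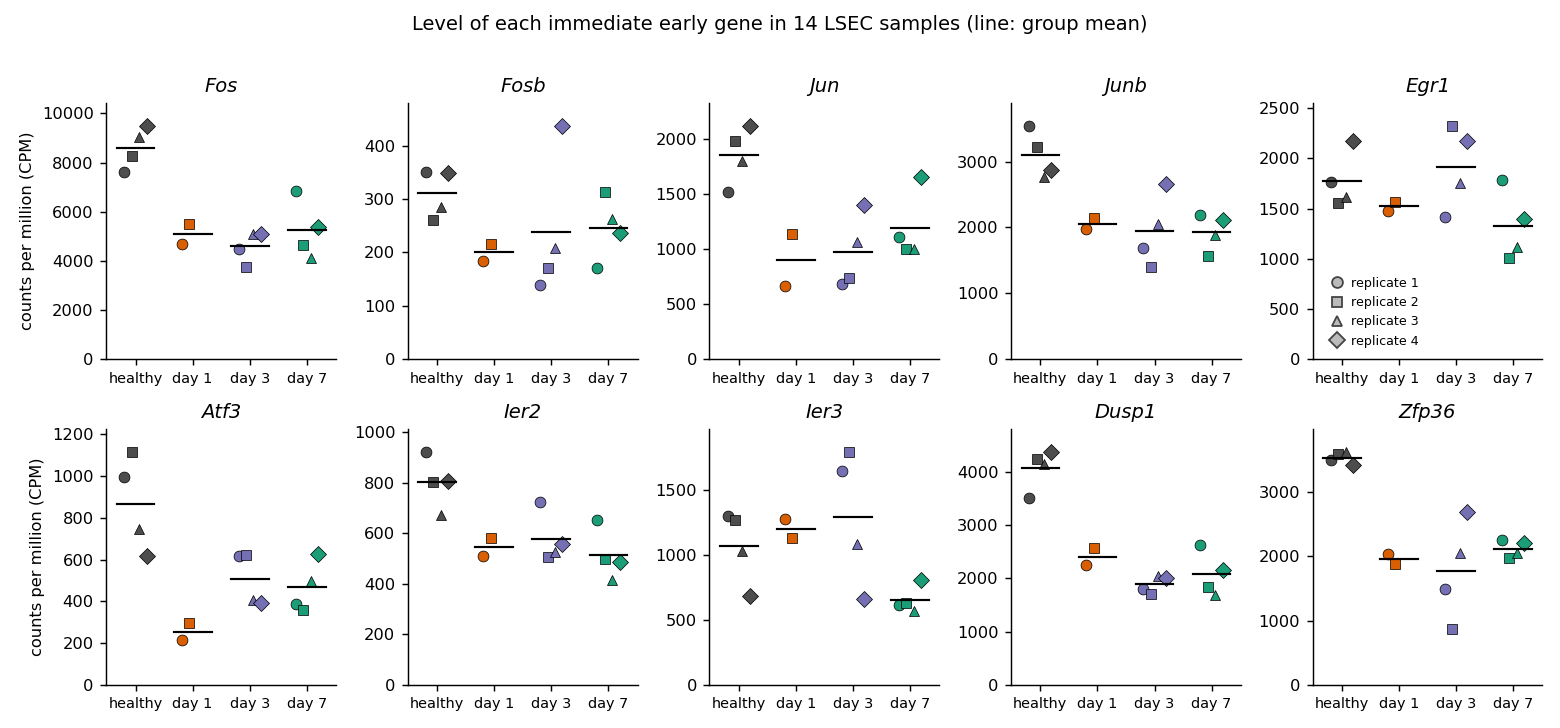
Level of each of the 10 immediate early genes in CPM (linear axis from 0) in the 14 LSEC samples, by group, with the replicate number as the symbol and the group mean as a line. The healthy group has the highest mean for 8 genes, whereas Egr1 and Ier3 are highest on day 3, where the samples of Ier3 run from 658 to 1791 CPM.

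Each injected group was then compared with the healthy group by the quasi-likelihood test of edgeR, fitted to all genes at once. Genes with a Benjamini-Hochberg adjusted p under 0.05 were called. The 3 comparisons use the same healthy samples. On day 1, 1 of the 10 genes fell (Atf3), against 1.64% of all tested genes called lower. On day 3, 3 fell (Fos, Dusp1 and Zfp36), against 2.58% of all tested genes, and on day 7, 1 fell (Dusp1), against 0.992%. None was called higher by edgeR, DESeq2 or limma-voom (edgeR called 2.42%, 4.62% and 2.19% of all tested genes higher on day 1, day 3 and day 7). At an unadjusted p under 0.05 there were 7, 7 and 8 lower, against 9.06%, 8.21% and 10.5% of all tested genes, and 0 higher. The estimated change was negative for 9, 8 and 10 of the 10 genes on day 1, day 3 and day 7. The median log2 fold change of the 10 genes was -0.70, -0.72 and -0.70, beside medians over all tested genes of -0.03, 0.18 and 0.02. Every sample lay below every healthy sample for 8 genes on day 1 (17.9% of all tested genes), for 5 on day 3 (6.84%) and for 5 on day 7 (12.1%). The counts depend on the test and on single samples: DESeq2 called 4, 6 and 5 of the 10 lower, against 6.89%, 5.34% and 3.72% of the genes it gave an adjusted p. Limma-voom called 7, 6 and 8 lower, against 6.73%, 11.4% and 13% of all tested genes. By edgeR with 1 sample left out, the day 1 count was 0 without day 1 replicate 1 and 1 otherwise. The day 3 count was 1 without day 3 replicate 2, 6 without day 3 replicate 4, 5 without day 7 replicate 1, and 2 to 4 otherwise. The day 7 count was 0 without day 7 replicate 2, 3 or 4, 2 without healthy replicate 4, 3 without day 3 replicate 4 or day 7 replicate 1, and 1 otherwise.

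**Figure D2:**
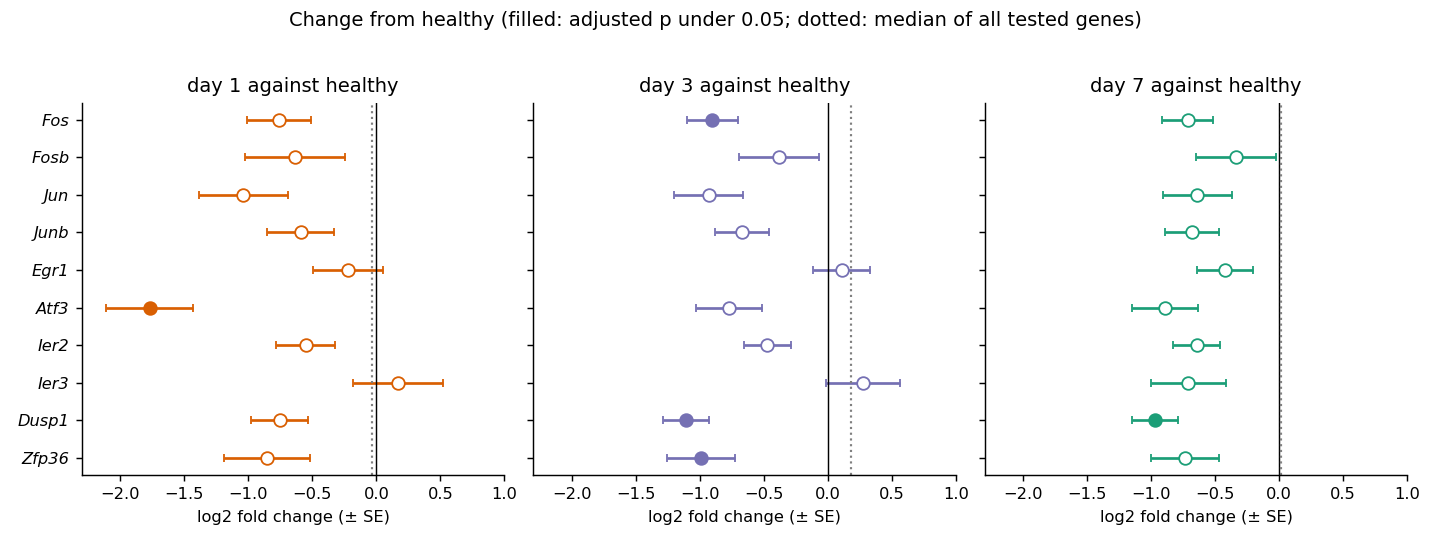
Log2 fold change of each immediate early gene against healthy LSECs on day 1, day 3 and day 7, with its standard error. Filled points passed the adjusted threshold of 0.05 (Atf3 on day 1, Fos, Dusp1 and Zfp36 on day 3, Dusp1 on day 7), and the dotted line is the median of all 26626 tested genes.

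Among the AP-1 genes, Fos (ENSMUSG00000021250, chr12:85473890-85477273, plus strand) encodes the classical partner of Jun. Its level in the 4 healthy samples was 7631, 8273, 9056 and 9480 CPM. It was 4674 and 5488 CPM on day 1. On day 3 it was 4478, 3755, 5099 and 5080 CPM, and on day 7 it was 6842, 4640, 4122 and 5363 CPM. All 10 samples after CCl4 were below the lowest healthy sample, and day 7 replicate 1 came closest. The fall passed the test on day 3 (log2 fold change -0.90, SE 0.20, edgeR adjusted p = 0.0164), or 1.87-fold lower. It did not pass on day 1 (log2 fold change -0.76, SE 0.25, edgeR adjusted p = 0.113) or day 7 (-0.72, SE 0.20, edgeR adjusted p = 0.0659). Without day 3 replicate 2 the change on day 3 was -0.80 with an edgeR adjusted p of 0.0502.

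Atf3 (ENSMUSG00000026628, chr1:191170296-191218039, minus strand) encodes a stress-induced member of the ATF family that pairs with Jun proteins. Its level was 995.6, 1116, 747 and 617 CPM in healthy LSECs, but 215 and 295 CPM on day 1. On day 3 it was 617, 620.1, 405 and 391 CPM, and on day 7 it was 385, 358, 499 and 628 CPM. The day 1 samples were the lowest of all 14, and on days 3 and 7 the highest samples slightly exceeded the lowest healthy one. Atf3 had the largest change of the 10 genes on day 1, a log2 fold change of -1.77 (SE 0.34, edgeR adjusted p = 0.0101), or 3.41-fold lower. On day 3 it was -0.77 (SE 0.26, edgeR adjusted p = 0.0886) and on day 7 it was -0.89 (SE 0.26, edgeR adjusted p = 0.0739), neither of which passed. Leaving out day 1 replicate 1 ended the call on day 1 (log2 fold change -1.59, edgeR adjusted p = 0.178).

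Jun (ENSMUSG00000052684, chr4:95049034-95052222, minus strand), the central AP-1 subunit, had levels of 1513 to 2115 CPM in healthy LSECs. It had 664 and 1140.1 CPM on day 1, 683 to 1401 CPM on day 3 and 995 to 1650.4 CPM on day 7. The groups did not overlap on day 1 and day 3, but on day 7 replicate 4 reached into the healthy range. The log2 fold changes were -1.04 (SE 0.34), -0.93 (SE 0.27) and -0.64 (SE 0.27) on day 1, day 3 and day 7, with edgeR adjusted p of 0.119, 0.0545 and 0.195. Junb (ENSMUSG00000052837, chr8:84974484-84978718, minus strand), which encodes a Jun relative with weaker activity, had levels of 2772 to 3538 CPM in healthy LSECs. Its levels were 1971 and 2143 CPM on day 1, 1395 to 2658 CPM on day 3 and 1563 to 2193 CPM on day 7, all below the healthy samples. The edgeR adjusted p of Junb was 0.252, 0.0707 and 0.0895, so no change of Junb passed.

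Fosb (ENSMUSG00000003545, chr7:19302696-19310051, minus strand), a Fos relative, had the lowest level of the 10 genes. It had 350.1, 260.0, 285 and 349 CPM in healthy LSECs and 184 and 216 CPM on day 1. On day 3 it had 139, 172, 209 and 437 CPM, so that replicate 4 was the highest of all 14 samples while the others were below every healthy sample. On day 7 it had 172, 314, 263 and 236 CPM. The log2 fold change on day 3 was -0.38 (SE 0.31, edgeR adjusted p = 0.521), and without day 3 replicate 4 it was -0.93 (edgeR adjusted p = 0.0206).

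Egr1 (ENSMUSG00000038418), the zinc finger activator, had levels of 1557 to 2177 CPM in healthy LSECs. Its levels were 1476 and 1571 CPM on day 1, 1414 to 2322 CPM on day 3 and 1004 to 1782 CPM on day 7. These ranges overlapped in all 3 comparisons, and the log2 fold changes of -0.22 (SE 0.27), 0.11 (SE 0.22) and -0.43 (SE 0.22) did not pass (edgeR adjusted p = 0.766, 0.819 and 0.283). The sign on day 3 was not fixed: it was -0.05 without day 3 replicate 4. Ier2 (ENSMUSG00000053560, chr8:84661331-84662852, minus strand), which encodes a nuclear protein of the immediate early response, had levels of 672 to 921 CPM in healthy LSECs. It had 511 and 581 CPM on day 1, 507 to 722 CPM on day 3 and 413 to 650.3 CPM on day 7. Day 3 replicate 1 was its only sample after CCl4 within the healthy range. The log2 fold change of Ier2 was -0.64 on day 7 (SE 0.18, edgeR adjusted p = 0.0723).

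Ier3 (ENSMUSG00000003541, chr17:35821684-35822923, plus strand), which encodes a regulator of cell survival, had its highest group mean on day 3. Its level was 1296, 1267, 1028 and 686 CPM in healthy LSECs and 1274 and 1128 CPM on day 1. On day 3 it was 1643, 1791, 1085 and 658 CPM, and on day 7 it was 613, 630.1, 568 and 804 CPM. Thus day 3 held the 2 highest samples of all 14 beside 1 of the lower ones, and the healthy group was itself wide. The log2 fold change was 0.17 on day 1 (SE 0.35), 0.28 on day 3 (SE 0.29) and -0.71 on day 7 (SE 0.29), with edgeR adjusted p of 0.888, 0.632 and 0.187. Without day 3 replicates 1 and 2, a setting chosen after seeing the data, the change on day 3 was -0.31.

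Dusp1 and Zfp36 are the feedback genes of the 10. Dusp1 (ENSMUSG00000024190, chr17:26505590-26562128, minus strand) encodes a phosphatase that inactivates MAP kinases. It had 3502, 4247, 4154 and 4373 CPM in healthy LSECs and 2241 and 2576 CPM on day 1. On day 3 it had 1802, 1702, 2041 and 1997 CPM, and on day 7 it had 2628, 1828, 1695 and 2163 CPM. No sample after CCl4 reached the lowest healthy sample. Dusp1 was 2.16-fold lower on day 3 (log2 fold change -1.11, SE 0.18, edgeR adjusted p = 0.00391) and 1.96-fold lower on day 7 (-0.97, SE 0.18, edgeR adjusted p = 0.0136). On day 1 the change of -0.76 (SE 0.22) had an edgeR adjusted p of 0.0793. The day 3 call held when any 1 of the 14 samples was left out (edgeR adjusted p of 0.00228 to 0.0151), whereas the day 7 call was lost without day 7 replicate 2, 3 or 4 (edgeR adjusted p of 0.0536, 0.0658 and 0.0547).

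Zfp36 (ENSMUSG00000044786, chr7:28376784-28380253, minus strand) encodes tristetraprolin, which binds AU-rich mRNAs and promotes their decay. The healthy samples were close together at 3507, 3593, 3628 and 3427 CPM. The level was 2041 and 1879 CPM on day 1, 1500.2, 863, 2055 and 2696 CPM on day 3, and 2259, 1978, 2051 and 2204 CPM on day 7. All samples after CCl4 were below the healthy ones, and day 3 held both the lowest and the highest of them. The change on day 3 was -0.99 (SE 0.27, edgeR adjusted p = 0.0395), or 1.99-fold lower. With 1 sample left out at a time this call was kept in 3 of the 14 fits, those without day 3 replicate 3, day 3 replicate 4 or day 7 replicate 1. Without any other single sample the edgeR adjusted p was 0.0506 to 0.0965. On day 1 and day 7 the changes of -0.85 (SE 0.34) and -0.74 (SE 0.27) had edgeR adjusted p of 0.194 and 0.137.

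Between consecutive days few differences were seen. From day 1 to day 3, edgeR called 0 of the 10 genes (2.54% of all tested genes), and 1 had an unadjusted p under 0.05 (15.8% of all tested genes): Atf3, with a log2 fold change of 1.00 (SE 0.33, edgeR adjusted p = 0.142) and all 4 day 3 samples above both day 1 samples (11.4% of all tested genes). Dusp1 also did not overlap between these days, with at most 2041 CPM on day 3 and at least 2241 CPM on day 1. Its log2 fold change was -0.35 (SE 0.21, edgeR adjusted p = 0.450). The share of all tested genes entirely lower on day 3 than on day 1 is not given here. From day 3 to day 7, edgeR again called 0 of the 10 (1.77% of all tested genes), and 2 had an unadjusted p under 0.05 (18.8% of all tested genes). These were Ier3, with a log2 fold change of -0.99 (SE 0.29, edgeR adjusted p = 0.115), and Egr1, with -0.53 (SE 0.22, edgeR adjusted p = 0.221), and both overlapped between the days. DESeq2 called 1 gene in each of these 2 comparisons (9.41% and 6.33% of the genes it gave an adjusted p), and limma-voom called 2 and 4 (12.6% and 22.5% of all tested genes). Without day 3 replicate 4, edgeR called 1 gene from day 3 to day 7.

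To ask whether the levels followed the group, the equality of all 4 group means was tested in the same fit. It was rejected for 3 of the 10 genes, beside 12% of all tested genes: Dusp1 (edgeR adjusted p = 0.00391), Atf3 (edgeR adjusted p = 0.0136) and Fos (edgeR adjusted p = 0.0244). For the other 7 the edgeR adjusted p ran from 0.0662 (Zfp36) to 0.555 (Fosb). Without day 3 replicate 4 it was rejected for 8 of the 10, and without any other single sample for 2 to 4. On the log2 CPM scale, differences between group means made up 89.0% of the variance of Dusp1, 79.2% of Fos and 75.9% of Atf3. They made up 65.8% for Ier2, 65.2% for Junb, 63.5% for Zfp36 and 62.7% for Jun. Ier3 (49.5%), Egr1 (44.3%) and Fosb (26.3%) had the smallest shares. The median over the 10 genes was 64.3%, that over all tested genes 36.8%, and that over the 1850 tested genes with a mean of at least 100 CPM 49.5%. The SD between samples of a group had a median of 0.33 on the log2 scale, beside 0.66 over all tested genes and 0.35 over the 1850 genes.

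**Figure D3:**
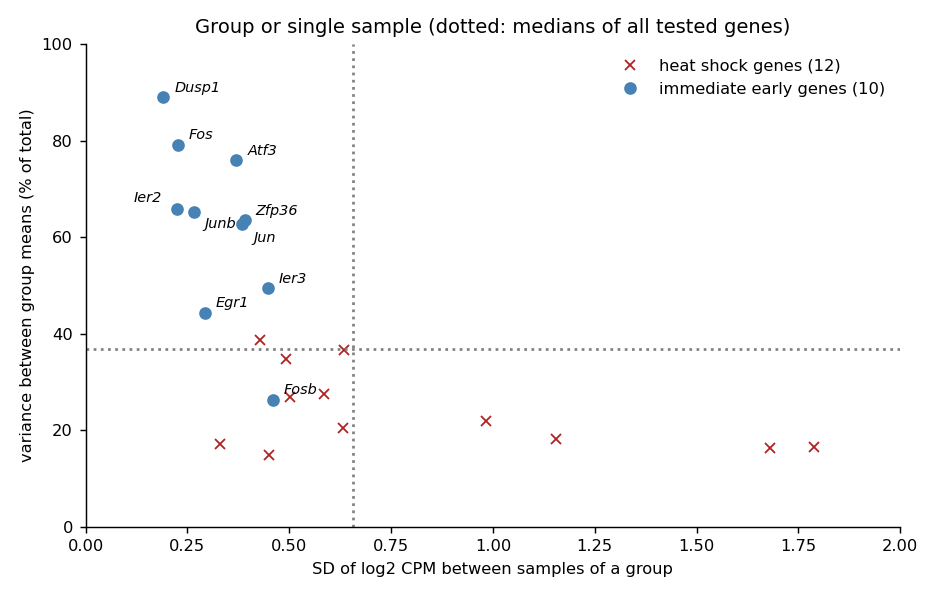
For each of the 10 immediate early genes (points) and 12 heat shock genes (crosses), the share of variance in log2 CPM that lies between the 4 group means is plotted against the SD between samples of a group. Dusp1 is at the upper left with 89.0%, Fosb has 26.3%, and the heat shock genes lie between 14.8% and 38.6%, with the medians of all tested genes as dotted lines.

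The spread within groups was then compared from gene to gene, as deviations of log2 CPM from the group mean over the 14 samples. The 45 pairs of members had a median Pearson r of 0.13, beside 0.02 over all pairs of tested genes, and 12 pairs (26.7%) were above 0.5, beside 15.5% of all pairs. All deviations share the library and its scaling, and with scaling by library size alone the median r of the members was 0.41. Fos and Dusp1 moved together most closely, with r = 0.95 and Spearman's rho = 0.95. In an exact two-sided permutation test within groups, p was 0.00018 for r and 0.00011 for rho, with adjusted p of 0.00814 and 0.00488 over the 45 pairs. Without the 2 samples farthest from the median of Fos, r was 0.90. No other pair had an adjusted p under 0.05: Junb and Zfp36 had r = 0.83 and rho = 0.74 (exact permutation adjusted p = 0.185 and 0.374), with r = 0.53 without the 2 farthest samples. Atf3 and Ier3 had r = 0.75 and rho = 0.75 (exact permutation adjusted p = 0.138 and 0.326), and Fosb and Ier3 had r = -0.73 and rho = -0.55 (exact permutation adjusted p = 0.247 and 0.435).

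**Figure D4:**
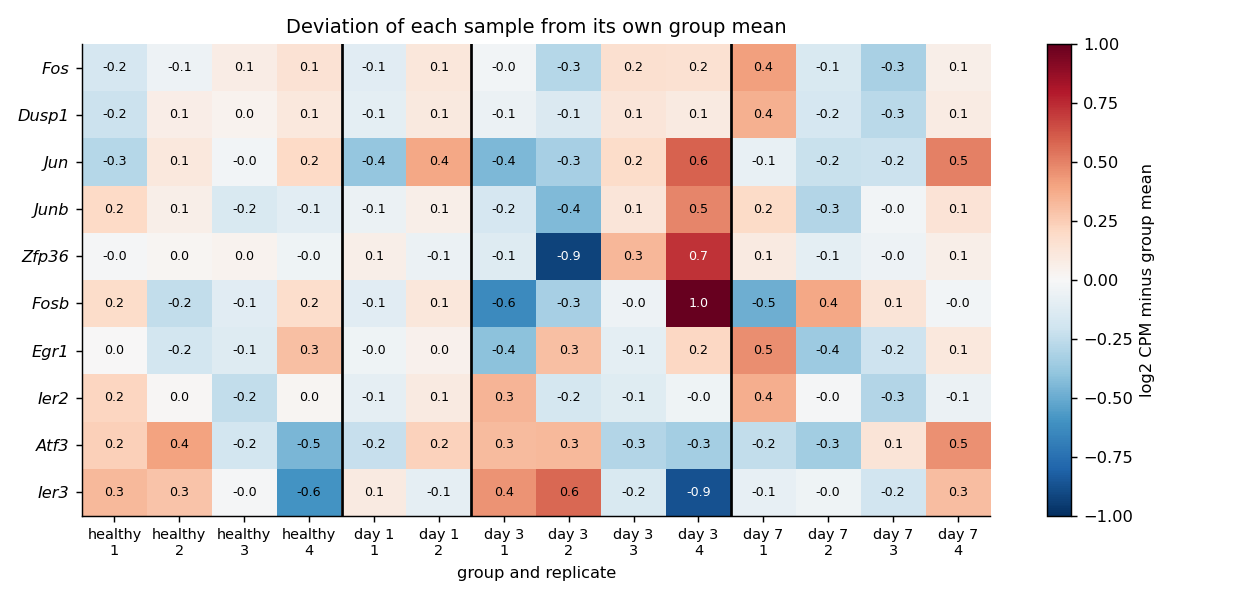
Deviation of log2 CPM from the group mean for each immediate early gene (rows) in each sample (columns), red above and blue below the mean, with vertical lines between groups. Fos and Dusp1 share their pattern (r = 0.95), and day 3 replicate 4 is high in Fosb, Zfp36 and Jun while it is low in Ier3.

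No sample was high or low in all 10 genes. The mean deviation of the 10 genes ran from -0.14 in day 3 replicate 2 to 0.20 in day 3 replicate 4, where 7 genes were above the group mean. In day 3 the summed level was 14684, 13866, 16286 and 18047 CPM in replicates 1 to 4, and it was higher in the samples with fewer detected genes. In day 7 the summed level was 18631, 13811, 13611 and 17030 CPM, and the mitochondrial share was 5.28, 8.32, 9.87 and 5.91% in the same samples. The part of detection, scaling, RNA quality and mRNA of other cell types in these differences was not tested. The genes whose deviations were most like the mean of the 10, among 15605 genes with a mean of at least 1 CPM, were Ggta1 (r = 0.92), Neurl1a (r = 0.90), Fut11 (r = 0.90), Uap1 (r = 0.90) and Swap70 (r = 0.89), given as a description over the 14 samples.

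The level of the members was set beside that of the sorted cell type. The 12 LSEC markers summed to 18360 to 21700 CPM in healthy LSECs, 13120 and 16121 CPM on day 1, 11136 to 15467 CPM on day 3 and 10713 to 15550 CPM on day 7, so they also separated the healthy group from all samples after CCl4. By edgeR 2, 3 and 1 of the 12 fell and 2, 1 and 0 rose on day 1, day 3 and day 7. Of all tested genes, 1.64%, 2.58% and 0.992% fell and 2.42%, 4.62% and 2.19% rose. The ratio of the members' sum to the LSEC marker sum was 1.29 ± 0.15 (SD, n = 4) in healthy LSECs, 1.11 ± 0.08 (n = 2) on day 1, 1.19 ± 0.09 (n = 4) on day 3 and 1.18 ± 0.10 (n = 4) on day 7, and these ranges overlapped. This ratio was chosen after seeing the data and has no test. Relative to the LSEC marker sum, the median log2 difference of the 10 genes from healthy was -0.22 on day 1, -0.12 on day 3 and -0.08 on day 7. On this scale Atf3 and Zfp36 on day 1 were the only genes entirely below the healthy samples, and none was on day 3 or day 7. Ier3 on day 1 and Egr1 on day 3 lay entirely above them. The share of all tested genes without overlap was not computed on this scale. On the CPM scale 17.9%, 6.84% and 12.1% lay entirely below healthy on day 1, day 3 and day 7. These counts are therefore no result about the members. Dusp1 differed by -0.49 and Fos by -0.29 on day 3 on this scale, both with overlap.

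**Figure D5:**
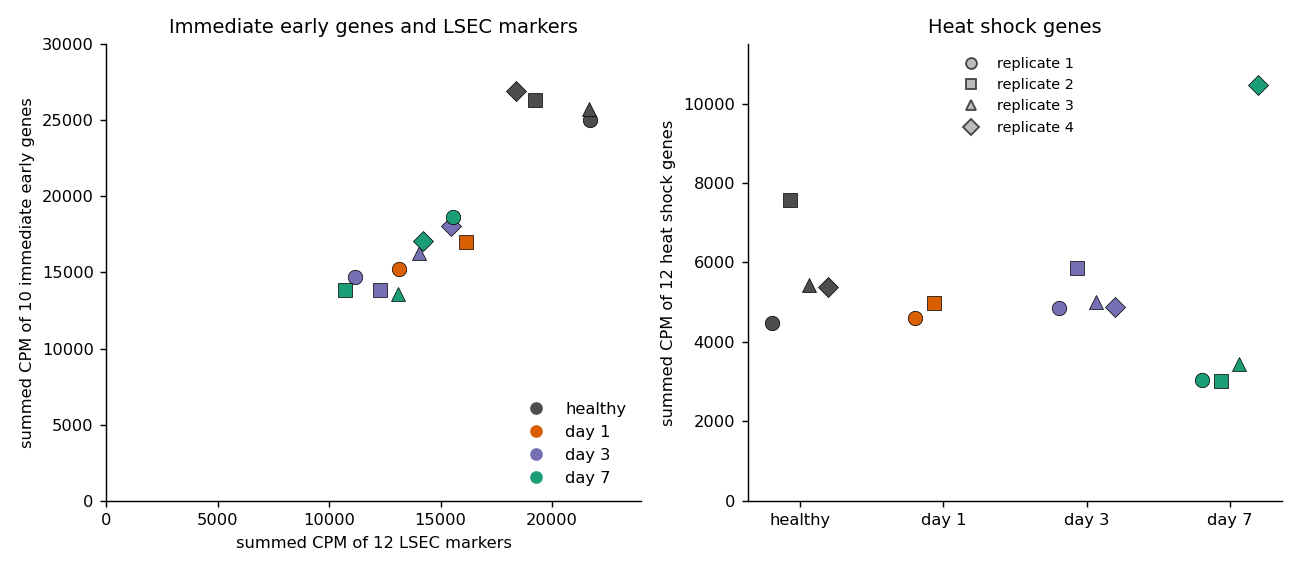
Left, summed CPM of the 10 immediate early genes against the summed CPM of 12 LSEC markers in the 14 samples, both axes linear from 0. The 4 healthy samples lie at 25020 CPM and above, with all others at or below 18631 CPM. Right, summed CPM of 12 heat shock genes by group, where day 7 replicate 4 reaches 10480 CPM.

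Marker mRNAs of some other cell types also differed in the sorted material. Monocyte and neutrophil markers (11 genes) summed to 522 to 1418 CPM in healthy LSECs and to 4545 to 8612, 1392 to 13570 and 4207 to 9696 CPM on day 1, day 3 and day 7, with 6, 5 and 1 of 11 called higher. Among all tested genes, 2.42%, 4.62% and 2.19% were called higher. The day 3 sums were 13570, 8361, 1508 and 1392 CPM in replicates 1 to 4, so only replicates 1 and 2 were far above the healthy range. The members' sums in these day 3 replicates were 14684, 13866, 16286 and 18047 CPM, and a link was not tested. Stellate cell markers (10 genes) were 150.5 to 273 CPM in healthy LSECs, at most 128 CPM on day 1, 845 to 2670 CPM on day 3 and 460.5 to 7584 CPM on day 7, and all 10 rose on day 3 and day 7. Hepatocyte markers (10 genes) summed to 320, 253, 473 and 10570 CPM in the healthy samples, 42.4 and 171 CPM on day 1, 1040 to 3553 CPM on day 3 and 941.5 to 7443 CPM on day 7, so that 3 of the 4 healthy samples were below every day 3 and day 7 sample. Cholangiocyte markers (6 genes) summed to 80.4 to 195 CPM in healthy LSECs. The sums were 230.5 to 303, 322.5 to 1181 and 601 to 5258 CPM on day 1, day 3 and day 7, each above the healthy sums. The genes of this list did not rise together: 4, 3 and 1 of the 6 had a negative log2 fold change on these days. Their median log2 fold change was -0.52, -0.01 and 0.70. Kupffer cell markers (10 genes, 303 to 1948 CPM in healthy LSECs and 570 to 2214 CPM after CCl4) and lymphocyte markers (10 genes, 77.0 to 324 and 72.7 to 593 CPM) overlapped between healthy LSECs and the samples after CCl4. DESeq2 called 9 of the 10 hepatocyte markers lower on day 1, as did an unadjusted p under 0.05 by edgeR, and limma-voom called 0. Of these 4 lists edgeR, after adjustment, called only the cholangiocyte list's Spp1, which was higher on day 3 and day 7. Whether these mRNAs came from other cells, and the part of such cells in the levels of the 10 genes, was not tested.

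Of 10 other genes of the AP-1 family and its small Maf partners (Fosl1, Fosl2, Jund, Batf, Batf2, Batf3, Jdp2, Maff, Mafk and Mafg), 2 rose and 0 fell on day 1, 2 rose and 0 fell on day 3, and 0 rose and 1 fell on day 7. The share of all tested genes called in either direction was 4.06%, 7.19% and 3.18%. Fosl1, which encodes the late Fos relative Fra-1, went from 0.762 ± 0.147 CPM (SD, n = 4) in healthy LSECs to 43.2 ± 2.36 CPM (SD, n = 2) on day 1, a log2 fold change of 5.82 (SE 0.53, edgeR adjusted p = 6.2e-05). On day 3 Fosl1 was at 3.08 ± 2.16 CPM (SD, n = 4), still higher (log2 fold change 2.01, edgeR adjusted p = 0.0142). Jdp2, a repressor that pairs with Jun, rose on day 1 (log2 fold change 1.44, edgeR adjusted p = 0.00279) and fell on day 7 (-0.84, edgeR adjusted p = 0.0337). The median log2 fold change of these 10 genes was -0.07, 0.08 and -0.20 on day 1, day 3 and day 7.

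Of 36 other immediate early genes tested, 2 rose and 2 fell on day 1, 6 rose and 6 fell on day 3, and 1 rose and 2 fell on day 7, beside 4.06%, 7.19% and 3.18% of all tested genes called in either direction. On day 1, Ccn2, a target of YAP and serum response factor, rose from 54.2 ± 23.1 to 1768 ± 719 CPM (log2 fold change 5.03, edgeR adjusted p = 6.2e-05). Cebpb rose (log2 fold change 1.83), and Plk2 (-1.44) and Btg2, a p53 target, fell. On day 3 the flow-responsive factors Klf2 (log2 fold change -1.97) and Klf4 (-1.45) fell, as did Sgk1 (-1.50), while Ccn2 (2.29), Myc (1.52) and the NF-kB inhibitor Nfkbia (1.42) rose. On day 7 Sgk1 (-1.20) and Gadd45g (-1.13) fell and Gem (1.28) rose. The called genes of this list therefore went in both directions on each day.

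Among 9 MAP kinase phosphatases other than Dusp1, 2 rose and 1 fell on day 1, 2 rose and 2 fell on day 3, and 1 rose and 2 fell on day 7. Of all tested genes, 4.06%, 7.19% and 3.18% were called in either direction on these days. Dusp2, a phosphatase known from immune cells, rose from 31.3 ± 9.05 CPM in healthy LSECs to 90.9 ± 21.5, 144 ± 71.4 and 103 ± 15.1 CPM on day 1, day 3 and day 7 (edgeR adjusted p = 0.0301, 0.00244 and 0.0139). Dusp6, which inactivates ERK, also fell, from 390.3 ± 61.8 CPM to 195 ± 22.7 on day 3 (edgeR adjusted p = 0.00757) and 160 ± 36.5 CPM on day 7 (edgeR adjusted p = 0.00481). Dusp10 was lower on all 3 days and Dusp16 was higher on day 1 and day 3. Of the 2 relatives of Zfp36, Zfp36l1 and Zfp36l2, edgeR called 0 on any day. At an unadjusted p under 0.05 there were 0 on day 1 and day 3 and 1 higher on day 7. DESeq2 called 0 on every day and limma-voom 1 on day 7.

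Of 18 upstream regulators (serum response factor, its cofactors, ternary complex factors, CREB and MAP kinases), edgeR called 1 lower on day 1 and the same gene lower on day 3, Elk3, a ternary complex factor, from 589.6 ± 49.7 CPM to 207 ± 45.2 and 320.4 ± 73.8 CPM. Among all tested genes edgeR called 1.64% lower on day 1 and 2.58% on day 3. On day 7 edgeR called 0, with 4 lower at an unadjusted p under 0.05, and DESeq2 called 0 and limma-voom 5. Of 11 mRNAs known as targets of tristetraprolin, 3 rose on day 1, 5 on day 3 and 2 on day 7, and 0 fell. The share of all tested genes called higher was 2.42%, 4.62% and 2.19%. Tnf was 32.7 ± 7.88 CPM in healthy LSECs and reached 226 ± 72.4 CPM on day 3, with log2 fold changes of 1.54, 2.79 and 1.17 on day 1, day 3 and day 7 (edgeR adjusted p = 0.0154, 0.000607 and 0.0394). Ptgs2, the inducible cyclooxygenase, went from 3.34 ± 1.79 CPM to 34.1 ± 2.58, 34.1 ± 20.6 and 22.2 ± 6.89 CPM. Cxcl2 (log2 fold change 2.88 on day 1 and 2.32 on day 3), Cxcl1 (2.09 on day 3) and Ccl2 (3.21 on day 3) were the others that rose. These cytokines are also made by monocytes and neutrophils. Of 11 markers of these cells, edgeR called 6, 5 and 1 higher on day 1, day 3 and day 7. Their day 3 sums were 13570 and 8361 CPM in replicates 1 and 2 but 1508 and 1392 CPM in replicates 3 and 4. The source of the cytokine mRNAs was not tested.

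The heat shock genes, which heat and handling are known to induce, were examined as a second list of isolation stress. Of 12 genes edgeR called 0 on day 1, day 3 and day 7, with 0, 1 and 0 at an unadjusted p under 0.05. DESeq2 called 0 on each day and limma-voom 0, 1 and 0. Differences between groups made up a median of 21.2% of their variance (14.8 to 38.6%), with a median SD within groups of 0.61. This median share was 64.3% for the 10 members and 70.2% for the 12 LSEC markers. It was 56.0% for the other immediate early genes and 51.1% for the tristetraprolin targets. For the MAP kinase phosphatases it was 49.8%, and for the other AP-1 genes 48.6%. Hspa8, the constitutive chaperone and the most abundant of the heat shock genes, had mean levels of 1331 ± 314 CPM in healthy LSECs and 1210 ± 121, 1141 ± 134 and 1089 ± 411 CPM on day 1, day 3 and day 7. The inducible Hspa1a, named after its values were seen, had 70.3, 641, 211 and 169 CPM in healthy LSECs and 41.4 and 59.7 CPM on day 1. It had 30.4, 129.5, 86.6 and 418 CPM on day 3, and 36.2, 55.5, 120.2 and 1257 CPM on day 7. Thus single samples in healthy, day 3 and day 7 LSECs stood above the rest of their group. Of these 3 samples, day 3 replicate 4 also had the highest summed level of the 10 members in its group, whereas healthy replicate 2 and day 7 replicate 4 did not. By the mean deviation of log2 CPM over the 10 members, however, each of the 3 samples was the highest of its group. This deviation was 0.0483 in healthy replicate 2 (0.0475 in healthy replicate 1), 0.20 in day 3 replicate 4 and 0.16 in day 7 replicate 4. A link between the 2 lists was not tested.

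Several members overlap other annotated genes, and the sources used here do not say whether counting used strand. Of the partners on the opposite strand, Prdx2 (opposite Junb) had 90.7 to 135 CPM as group means, Ergic1 (opposite Dusp1) had 33.4 to 66.7 CPM, and Gm8225 (opposite Dusp1), Junos (opposite Jun) and Gm44710 (opposite Zfp36) had under 5 CPM, and Gm24748 (opposite Atf3) had 0 CPM. AC122252.1 and AC122252.4, annotated on the same strand within Dusp1, were not analysed here. Ergic1 had log2 fold changes of 0.51, 0.59 and -0.41 on day 1, day 3 and day 7, which for day 1 and day 3 is opposite in sign to Dusp1.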

How the data were processed

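Total RNA of sorted LSECs was sequenced by the authors, whose methods and processing notes name read trimming, quality checks with FastQC and AfterQC, STAR on GRCm38 and StringTie. Versions, the annotation and the use of strand are not given in the sources used here. The authors deposited raw counts per gene for 14 samples (54524 genes), with no further normalization. Of these, 54495 identifiers were found in GENCODE vM21, from which symbols and positions were taken. Counts were filtered with filterByExpr (minimum count of 10), leaving 26626 genes, scaled by TMM and fitted with edgeR 4.0.16 (glmQLFit and glmQLFTest, R 4.3.3) as 4 group means, with p-values adjusted by Benjamini-Hochberg over all tested genes. Standard errors are the log2 fold change over the root of F. Log2 CPM used a prior count of 2. The code was tested on simulated data. Other tools (DESeq2 1.42.0 and voom in limma 3.58.1, weighted by sample quality) were tried, as were other scaling and filters, 2 groups only, a replicate block, and samples left out. Named genes were all members, at most 6 called genes of each list by size of change, for lists without calls the most abundant, and the 5 genes closest to the members. The members, gene lists and tests were chosen with earlier results of these data known. No columns were identical, and replicates of a group correlated with r of 0.875 to 0.974.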

Additional observations from a re-analysis of the deposited data

Results flagged for a closer look

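In 87 sets of 4 samples (the 10 members, the summed level of each gene list and of the members, and 4 heat shock genes, in healthy, day 3 and day 7 LSECs), the extreme sample was compared with the others by Dixon's ratio of its gap to the whole range on the log2 scale, at the usual critical value for 4 samples. Chance flags about 1 in 20 sets, and 5 were found here, 0 of them among the 30 sets of the members. The summed level of the 12 heat shock genes stood apart in day 7 replicate 4 (10500 CPM, ratio 0.894) and in day 3 replicate 2 (5860 CPM, ratio 0.835). Among single heat shock genes, Hspb1 stood apart in day 7 replicate 4 (221 CPM, ratio 0.884) and Hspa8 in healthy replicate 2 (1800 CPM, ratio 0.919). The summed level of hepatocyte markers stood apart in healthy replicate 4 (10600 CPM, ratio 0.832). Of its group this sample had the lowest Atf3, Ier3 and Zfp36 but the highest Fos, Jun, Egr1 and Dusp1. Its summed level of the members was also the highest of the group (26901 CPM). Whether these samples differ in tissue preparation was not tested.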

How the results depend on the processing

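The counts of members called in the comparisons of day 1, day 3 and day 7 with healthy, of day 3 with day 1, of day 7 with day 3, and over all groups were 1, 3, 1, 0, 0 and 3. In this order they were 4, 6, 5, 1, 1 and 7 with DESeq2 and 7, 6, 8, 2, 4 and 10 with limma-voom. With only the 2 groups compared they were 5, 2, 5, 0 and 0, and without day 3 replicates 1 and 2, chosen after seeing the data, 2, 3, 6, 0, 0 and 6. The day 3 count was 6 with no filter on low counts and 5 with at least 10 counts in every sample. With 1 sample left out the counts ranged from 0 to 1, 1 to 6, 0 to 3, 0 to 0, 0 to 1 and 2 to 8. No setting called a member higher than healthy.

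Over all genes, the same 6 comparisons called 1080, 1915, 846, 676, 472 and 3183. These were 2744, 3633, 2602, 2313, 1663 and 6493 with DESeq2, 4308, 7265, 7047, 3344, 6002 and 14260 with limma-voom, and 1952, 2417, 2306, 1923, 638 and 5595 without day 3 replicates 1 and 2. With 2 groups only they were 2327, 1108, 3156, 189 and 1. Day 7 against day 3 gave 287 with library size only and 157 with no filter. With 1 sample left out, the ranges were 164 to 1845, 946 to 3314, 193 to 2166, 49 to 932, 26 to 1652 and 1185 to 6093. Where day 1 kept 1 sample, it was assumed to vary like the other groups. With library size only, the share of higher calls was 75.1% on day 3 (main 64.2%) and 86.8% on day 7 (main 68.8%).

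The replicate numbers gave no sign of pairing the samples. The 18 pairs of same-numbered samples had correlations of -0.23 to 0.10, none over 0.1, and 0 samples correlated best with their own number. Deviations from the mean of a small group depend on one another, so this check could miss a weak pairing. With the replicate block, all genes gave 594, 1385, 435, 311, 244 and 1869 calls and the members 1, 4, 1, 0, 0 and 3.

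Among members against healthy, 12 of 690 values changed sign, none of them called. Egr1 on day 3 was -0.07 with no filter and -0.051 to 0.15 with 1 sample left out. Ier3 was -0.037 on day 1 with the replicate block, -0.017 to 0.27 on day 1 and -0.021 to 0.40 on day 3 with 1 sample left out, and -0.31 on day 3 without day 3 replicates 1 and 2, where Fosb was 0.028. Between days, 63 of 460 values changed sign. The cause of these differences was not tested. Each member had 10083 or more counts in every sample.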
